A study of Mus musculus with 12 samples.

Results

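The H3K27ac peaks described here were the 14614 genomic intervals listed with the same chromosome, start and end in both hypoxia and normoxia, out of 15203 peaks in the hypoxia list, 14832 in the normoxia list and 22555 distinct intervals across all peak lists of the series. What was compared is the score each of these shared peaks carried in each list. Mouse bone-derived mesenchymal stem cells (MSCs) from animals aged 3 to 5 months were cultured at 2% oxygen (hypoxia) or 21% oxygen (normoxia), both with 5% CO2, for chromatin immunoprecipitation and sequencing. The cells were purified by sorting. The study's methods place the sort before the cells were divided between the oxygen levels, with the normoxia cells moved up from hypoxia, and the labels place it after the culture. H3K27ac, H3K4me3 and an input control were each sequenced in 2 libraries per oxygen level, and the labels name no strain, allele or further agent. The comparison asks how the standing of an H3K27ac peak differs between the oxygen levels where the peak itself was called in both.

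H3K27ac is acetylation of lysine 27 on histone H3, a mark laid down by the acetyltransferases p300 and CBP at active enhancers and promoters, and its acetyl groups come from acetyl-CoA. H3K4me3, trimethylation of lysine 4, sits mainly at the starts of active genes, many of which are rich in CpG dinucleotides. In cells short of oxygen, HIF transcription factors are stabilised and bind a short core motif near genes of glycolysis and angiogenesis, while MSCs are the stromal cells from which bone, cartilage and marrow fat form.

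Both libraries of a group had been merged into 1 list before deposition, so each peak has 1 score per oxygen level and no spread between replicates. No value below has a replicate check and no test of the oxygen effect was possible. Sequencing depth is unknown at this level. Intervals given are 95% Wilson intervals, or order-statistic intervals for medians, and cover counting error over peaks only. An upper limit given for a count of 0 is instead 3 divided by the number of pairs and treats the pairs as independent. It lies below the Wilson limit, except for the 13 mitochondrial pairs, where it is 23.1% against 22.8%. The cells' label was checked on peaks at gene starts. Of 18 mesenchymal markers, 14 had a shared H3K27ac peak within 1000 bp of a start, Pdgfra, Cxcl12, Prrx1, Vim and Col3a1 among them, and Eng, Nt5e, Twist2 and Postn had none. Csf1r was the single one of 12 haematopoietic markers with such a peak, and 0 of 8 endothelial markers had one.

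Short intervals allow the sequence to be shown next to the scores. Below are the central 200 bases, plus strand of GRCm38 (mm10), of the peaks of at most 1500 bp, under the cap in both lists, with the largest score difference in each direction. Capitals mark a match on either strand to one of the motifs searched, which are spelled out further on. The first 2 peaks had the higher score in hypoxia and the other two the lower score.
Sp7 upstream, chr15:102378651-102378850: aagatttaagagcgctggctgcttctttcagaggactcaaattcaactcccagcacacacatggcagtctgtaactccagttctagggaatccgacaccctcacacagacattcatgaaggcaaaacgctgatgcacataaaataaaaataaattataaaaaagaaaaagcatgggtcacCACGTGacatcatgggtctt
Col6a1 start, chr10:76726151-76726350: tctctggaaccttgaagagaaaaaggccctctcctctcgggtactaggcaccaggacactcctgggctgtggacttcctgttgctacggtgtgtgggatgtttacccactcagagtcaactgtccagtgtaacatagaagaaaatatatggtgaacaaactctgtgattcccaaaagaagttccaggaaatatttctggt
Irf2 distal, chr8:46687151-46687350: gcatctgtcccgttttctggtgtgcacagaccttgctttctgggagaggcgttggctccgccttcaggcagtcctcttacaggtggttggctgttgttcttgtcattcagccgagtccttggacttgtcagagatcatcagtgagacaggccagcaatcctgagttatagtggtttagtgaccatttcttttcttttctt
Cmtm6 distal, chr9:114753151-114753350: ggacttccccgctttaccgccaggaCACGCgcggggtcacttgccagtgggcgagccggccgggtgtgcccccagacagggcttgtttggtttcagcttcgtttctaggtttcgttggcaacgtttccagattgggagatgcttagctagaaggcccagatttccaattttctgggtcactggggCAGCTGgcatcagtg
The Sp7 interval lay between genes, 11033 bp from the start of Sp7, which encodes the osteoblast transcription factor osterix, and scored 123 in hypoxia against 62 in normoxia. Its capitals are 1 palindrome that holds the HIF core on both strands. The Col6a1 interval, 500 bp at the start of a collagen VI chain, scored 127 against 68 and held no match in its central bases. The interval 51732 bp from Irf2, an interferon regulatory factor, scored 53 in hypoxia and 102 in normoxia, also without a match. The interval 21328 bp from Cmtm6 scored 68 and 103 and held 1 HIF core and 1 E-box. Both of these intervals carried H3K4me3, so distal in their labels means only distance from the start of a protein-coding gene. Of all measurable peaks at least 20 points lower in hypoxia, 18.5% carried H3K4me3. A HIF core was present in 31.6% of the central 200-base windows of all 14614 peaks, and an E-box in 10.2%.

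The score is the number the authors deposited in column 5 of each peak list. Its definition was not given in the sources used here, and it was read as rising with confidence in the peak. Among shared peaks it was a whole number from 50 to 160, or 1000, a cap with nothing in between. The cap was reached by 3372 shared peaks in hypoxia (23.1%, interval 22.4 to 23.8) and by 2802 in normoxia (19.2%, interval 18.5 to 19.8). Under the cap the median score was 94 in hypoxia, with quartiles of 69 and 127, and 90 in normoxia, with quartiles of 67 and 122. A difference is the hypoxia score minus the normoxia score, and a capped score entered as 160, so that a difference against the cap is a lower bound. The 2575 peaks capped in both lists give no difference, which left 12039 measurable pairs (82.4%).

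H3K27ac scores were higher in hypoxia more often than lower. Of the measurable pairs, 5824 (48.4%) scored higher in hypoxia, 3790 (31.5%) scored the same and 2425 (20.1%) scored lower. The median difference was 0, the quartiles were 0 and 11, and the mean was 6.30. Among the 8249 pairs that differed, 70.6% (interval 69.6 to 71.6) were higher in hypoxia. A difference of at least 20 points was reached upward by 2089 pairs, 17.4% of those measurable, and downward by 550, or 4.57%. These 2 shares are the background against which groups of peaks are read below. Peaks capped in 1 list alone had the same lean, with 797 capped in hypoxia and 227 in normoxia.

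**Figure D1:**
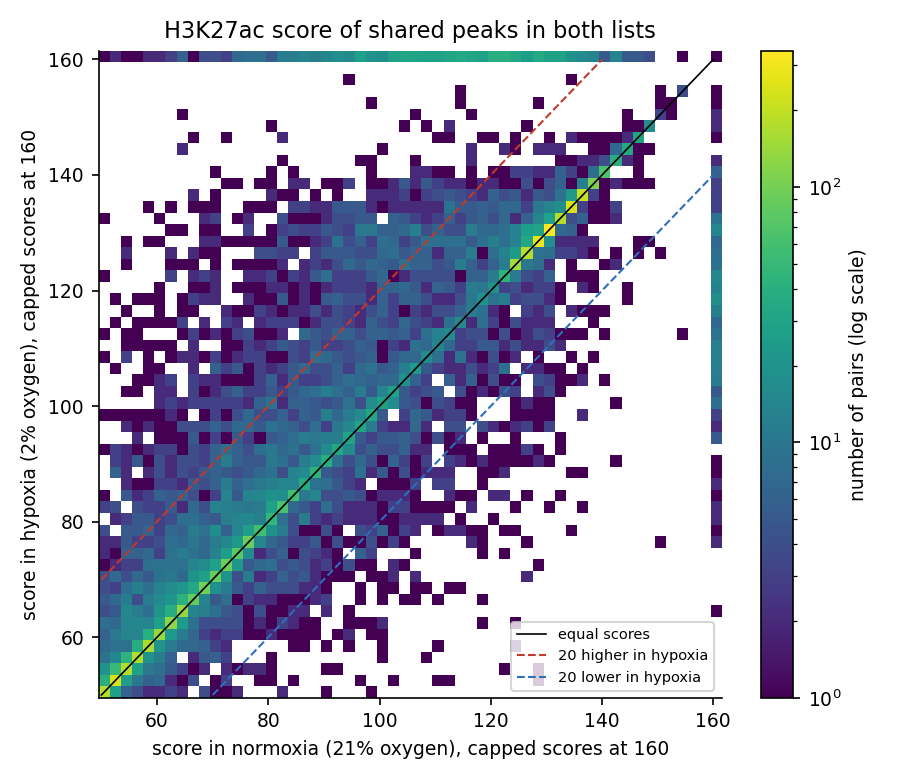
Scores of the 12039 measurable shared H3K27ac peaks, normoxia on the x axis and hypoxia on the y axis, both in score units with capped scores drawn at 160. Colour gives the number of pairs per square of 2 by 2 points on a log scale, the black line marks equal scores and the dashed lines a difference of 20. Pairs crowd on the line of equal scores at both ends of the scale, and 2089 lie on or above the upper dashed line against 550 on or below the lower one.

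The lean over all differing pairs rested on the scale and on the handling of equal scores. Each score was replaced by its percentile within its own list. The higher value then lay in hypoxia for 36.8% of the pairs whose percentiles differed, and the median difference was -1.80 percentile points. This share is not over the same pairs as the 70.6%. The 3790 pairs with equal scores, left out of the 70.6%, all had the lower percentile in hypoxia and count in the 36.8%. The larger differences kept their lean, since 10.2% of pairs were at least 20 percentile points higher in hypoxia and 4.10% at least 20 lower.

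The 2 scores of a peak were not measured independently. Under the cap, 34.4% of pairs had identical scores and 62.5% lay within 5 points of each other, with a Spearman coefficient of 0.89 over 11015 pairs that share a single joint segmentation. H3K4me3 marks the extreme case. All 14600 H3K4me3 intervals found in both lists had exactly the same score in hypoxia and normoxia. On the 5243 segments that carried H3K4me3 and a measurable H3K27ac pair, the H3K27ac score differed on 3023 (57.7%) and the H3K4me3 score on 0. Since every shared H3K4me3 interval had equal scores, that 0 does not measure whether H3K4me3 changed.

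The cap followed the chromosome. On chromosomes 1, 2, 3, 4, 7, 9, 13, 14, 16 and 18, 30.9 to 44.4% of shared H3K27ac peaks were capped in hypoxia and 27 to 38.9% in normoxia. On chromosomes 5, 6, 10, 11, 15 and X at most 0.40% were capped in either list, and chromosomes 8, 12, 17 and 19 lay between, at 4.47 to 12.3% in hypoxia. H3K4me3 was capped on other chromosomes, from 86.9% of peaks on chromosome 15 to 0 on 7 chromosomes. Scores were therefore compared only between oxygen levels at the same peak, and shares are given within the chromosome groups as well. What sets the cap was not tested. Equal scores also gathered under the cap. At a mean score of 120 to 140, 50.3% of pairs were equal, against 7.76% at 100 to 120 and 50.6% at 50 to 60. Whether ties at high scores reflect a further upper limit of the scale was not tested, so they are not read as an absence of change.

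**Figure D2:**
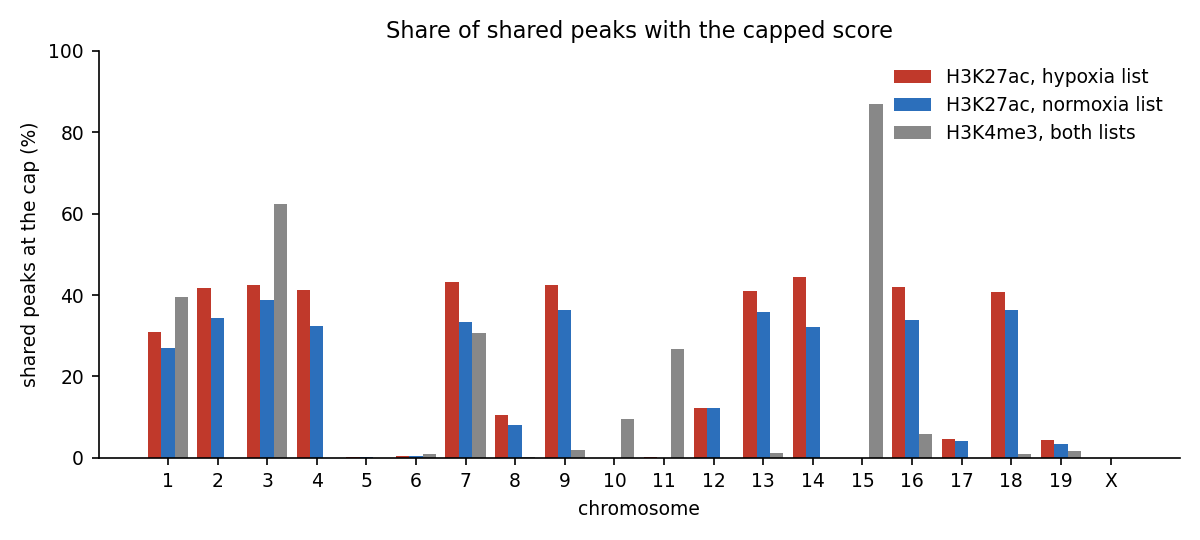
Share of shared peaks with the capped score (y axis, percent) on each chromosome (x axis), for H3K27ac in the hypoxia list, H3K27ac in the normoxia list and H3K4me3, whose shares were equal in both lists. H3K27ac bars exceed 26% on 10 chromosomes and are at or near 0 on 6, while H3K4me3 peaks at 86.9% on chromosome 15.

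The lean towards hypoxia was present on each of the 20 chromosomes compared, the Y chromosome with its 1 shared peak left aside. Between 62.3% (chromosome 3) and 81.2% (chromosome 11) of differing pairs were higher in hypoxia. The share at least 20 higher ran from 8.96% on chromosome X to 30.9% on chromosome 14, and exceeded the share at least 20 lower on all 20. On the 6 chromosomes almost without capped scores, 11.5% of 4358 pairs were at least 20 higher and 2.29% at least 20 lower. On the 10 often capped chromosomes the shares were 23.9% and 7.15% of 5328 pairs. The size of the shares thus moved with the cap, and the direction did not.

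Promoter peaks made up 1253 of the 2089 upward and 129 of the 550 downward pairs. Of the shared peaks, 7709 (52.8%) were promoter peaks, within 1000 bp of the start of a protein-coding gene, 4148 lay within a gene and 2757 between genes. Among measurable promoter pairs, 21.8% (interval 20.8 to 22.9) were at least 20 higher in hypoxia and 2.25% (1.90 to 2.66) at least 20 lower. The shares were 13.8% and 6.41% within genes, and 12.4% and 7.10% between genes. Promoter peaks were also those most often capped in both lists, 25.6% against 7.52% within genes, so a larger part of them could not be measured. On the chromosomes almost without capped scores, the upward share of promoters exceeded that of peaks between genes by 3.02 percentage points (interval 0.41 to 5.36), in place of 9.42 on all chromosomes.

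H3K4me3 divided the peaks in the same way. Where H3K4me3 covered the segment, 22.6% of 5243 pairs (interval 21.5 to 23.7) were at least 20 higher and 1.95% (1.61 to 2.36) at least 20 lower. Where the nearest H3K4me3 peak lay within 1000 bp, these shares were 16.4% and 4.85% of 1916 pairs. Where it lay further away, as at distal enhancers, they were 12.1% (11.2 to 13.1) and 7.27% (6.58 to 8.04) of 4880 pairs. The upward share differed between the first and the last class by 10.5 percentage points (interval 9.01 to 11.9) and the downward share by -5.33 points (interval -6.16 to -4.52). On all 20 chromosomes the upward share was larger and the downward share smaller with H3K4me3 than far from it. On the chromosomes almost without capped scores the upward shares were 13.2% and 9.25%, a difference of 3.95 points (interval 1.88 to 5.95).

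H3K4me3 and place were then crossed. Peaks between genes that carried H3K4me3 were at least 20 higher in 17.8% of 208 pairs (interval 13.2 to 23.6) and those within genes in 23.4% of 141 (17.2 to 31.0). Promoter peaks with no H3K4me3 within 1000 bp reached 16.2% of 265 (12.3 to 21.1), and their downward share, 6.79%, was near that of distant peaks. The upward excess of H3K4me3 peaks was seen at mean scores from 60 to 120. At a mean score of 100 to 120, 47.6% of pairs with H3K4me3 were at least 20 higher, against 24.2% far from it. At 120 to 140 the order turned, with 15.6% against 18.5%. The downward share was smaller with H3K4me3 in both ranges, 2.84% against 12.0% and 1.41% against 13.2%.

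GC content moved with the difference along the whole range. Below 42% GC, 8.40% of 1560 pairs were at least 20 higher and 9.23% at least 20 lower, the single GC class in which downward pairs were the more numerous. From 45 to 48% GC the shares were 15.5% and 5.21%, and above 56% GC they were 28.5% (interval 25.9 to 31.3) and 1.40% (0.85 to 2.30) of 1071 pairs. On all 20 chromosomes, the upward share was larger above 52% GC than below 45%. GC and H3K4me3 went together, since H3K4me3 covered 2.88% of pairs in the lowest GC class and 94.8% in the highest. Among peaks far from H3K4me3, the upward share still moved from 8.37% below 42% GC to 20.6% at 52 to 56% GC, and the downward share from 9.60% to 1.87%. At 45 to 48% GC, 17.1% of pairs with H3K4me3 (interval 14.4 to 20.2) and 13.6% of those far from it (11.8 to 15.6) were at least 20 higher, intervals that overlap, and at 42 to 45% GC the shares were 25.6% (19.5 to 32.8) and 10.6% (9.10 to 12.3), which do not. The downward shares at 45 to 48% GC, 2.80% (1.78 to 4.37) and 6.85% (5.58 to 8.38), did not overlap either. Library GC bias could not be measured from peak lists, and its part in these differences was not tested.

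**Figure D3:**
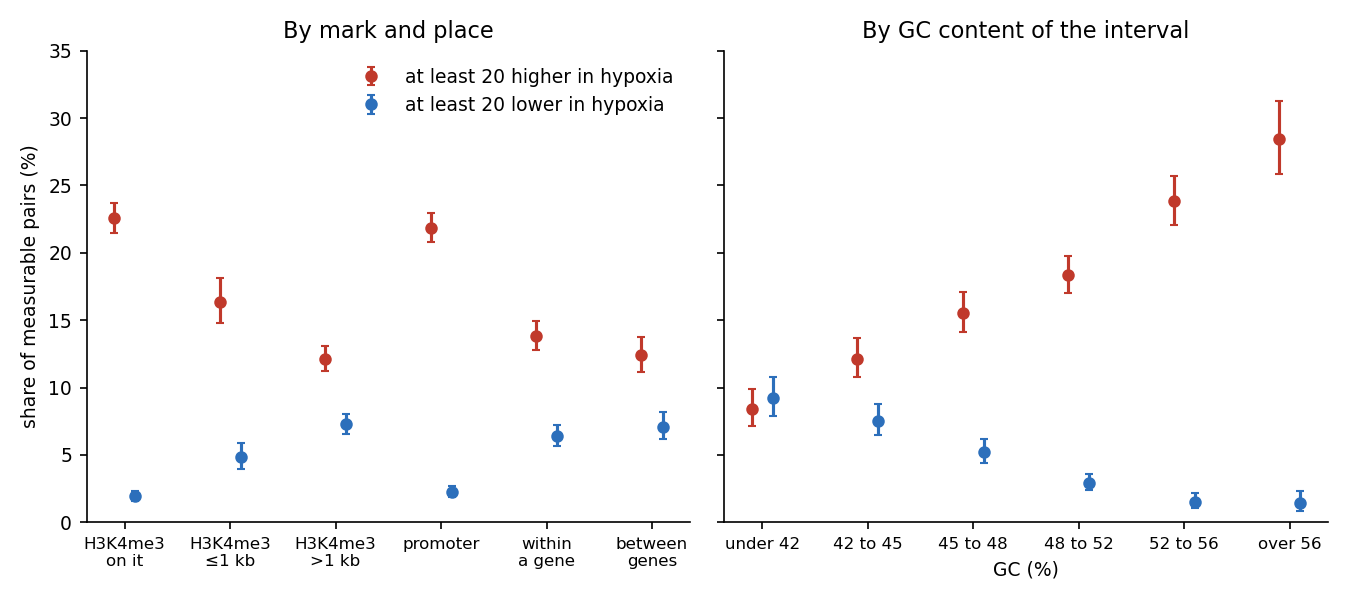
Share of measurable pairs (y axis, percent) at least 20 points higher (red) or lower (blue) in hypoxia, by H3K4me3 and place on the left and by GC content of the interval in percent on the right. Bars are 95% Wilson intervals. The red share falls from 22.6% with H3K4me3 on the segment to 12.1% far from it and climbs with GC from 8.40% to 28.5%, while the blue share goes the other way.

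Width separated the peaks less. The upward share was 9.30% of 484 pairs of up to 1500 bp, and 18.5%, 16.3% and 17.8% in the wider classes of 2000 to 3500, 4000 to 7500 and at least 8000 bp. The downward share went from 2.48% in the narrowest to 7.12% in the widest class. Condition-specific peaks served as a reference. The 190 shared peaks that touched a hypoxia-only peak had a median difference of 13, with 41.6% (interval 34.8 to 48.7) at least 20 higher, and the 51 that touched a normoxia-only peak had a median of 0, with 15.7% (8.17 to 28) at least 20 lower. Shared peaks that touched neither made up 11798 of the pairs and had shares of 17.0% and 4.57%. Where neighbouring peaks touched and both passed 20 points, 75 of 88 (85.2%) went the same way, and at gaps over 50000 bp the share was 67.6%.

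Short motifs were counted on both strands. They were the HIF core ACGTG or GCGTG, the AP-1 site TGANTCA, RUNX ACCACA, TEAD GGAATG, SP/KLF GGGCGG, ETS CCGGAAG, C/EBP TTGCGCAA, the cyclic AMP response element TGACGTCA and the E-box CAGCTG. SP/KLF, a CpG-rich promoter box, had 0.635 matches per kb in the peaks at least 20 higher in hypoxia, 0.224 in those at least 20 lower and 0.517 in all measurable peaks. The HIF core, which also contains a CpG and can overlap the cyclic AMP element, had 1.62, 1.27 and 1.53 per kb. AP-1, bound by Fos and Jun proteins at enhancers, went the other way with 0.322, 0.413 and 0.349 per kb. It occurred at least once in 64.5% of the upward and 85.1% of the downward peaks, which differed in median width, 3500 and 4750 bp. RUNX had 0.818 and 0.876 and TEAD 0.594 and 0.671 per kb in the upward and downward peaks. The upward peaks had a median GC of 50.3% and 24.7 CpG per kb, the downward peaks 44.6% and 10.5. Among peaks far from H3K4me3 the spread was narrower, with HIF core at 1.29 and 1.10, SP/KLF at 0.178 and 0.125, and AP-1 at 0.386 and 0.445 per kb. A match describes the letters and not binding of a factor.

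The largest upward differences under the cap fell at gene starts. Spast, which encodes the microtubule-severing protein spastin, scored 151 in hypoxia and 64 in normoxia at its start (chr17:74338001-74341500). The start of Dvl1, which encodes the Wnt transducer Dishevelled, scored 160 and 77, and that of Dact1, which encodes a Dishevelled-binding antagonist, scored 132 and 50. Smim1, which encodes a small membrane protein, followed with 147 and 67 at 355 bp from its start. Ppdpf scored 145 and 65, and Dennd6b, which encodes a DENN-domain protein, 144 and 65. Tbkbp1, which encodes a partner of the kinase TBK1, scored 134 and 59. Echs1, which encodes an enoyl-CoA hydratase of mitochondrial fatty acid oxidation, scored 147 and 72. All 8 intervals were promoter peaks, 7 of them with H3K4me3 on the segment, and their GC ranged from 49.8 to 62.7%.

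Most of the largest downward differences lay far from any gene start. The interval 346521 bp from Trps1, which encodes a GATA-type factor of cartilage, scored 53 in hypoxia and 129 in normoxia (chr15:50478501-50481000). One 356855 bp from Atp6ap1l scored 76 and 151. Within Mcu, which encodes the mitochondrial calcium uniporter, an interval of 10500 bp scored 55 and 129. Inside Adam12, which encodes a membrane metalloprotease, the scores were 55 and 122, and inside Cers6, which encodes a ceramide synthase, 63 and 125. An interval 85692 bp from Pdk4, which encodes a kinase that inhibits pyruvate dehydrogenase, scored 58 and 124, and one 102826 bp from Cop1, which encodes a ubiquitin ligase, 52 and 112. Sec13, which encodes a coat protein of secretory vesicles, was the exception, with 58 and 125 at its own start. The other 7 intervals had no H3K4me3 within 1000 bp.

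Peaks capped in 1 list with the lowest score in the other showed the same contrast. Those capped in hypoxia lay at the start shared by Unc50 and Coa5 (normoxia 50), at Zbtb34 (52), at Tor2a (53) and 88961 bp from Cstad (55). Those capped in normoxia lay 500018 bp from Col12a1 (hypoxia 64), within Aff3 (76), 92219 bp from the collagen gene Col5a2 (77) and 13543 bp from Rad23b (78). All 8 were on often capped chromosomes.

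**Figure D4:**
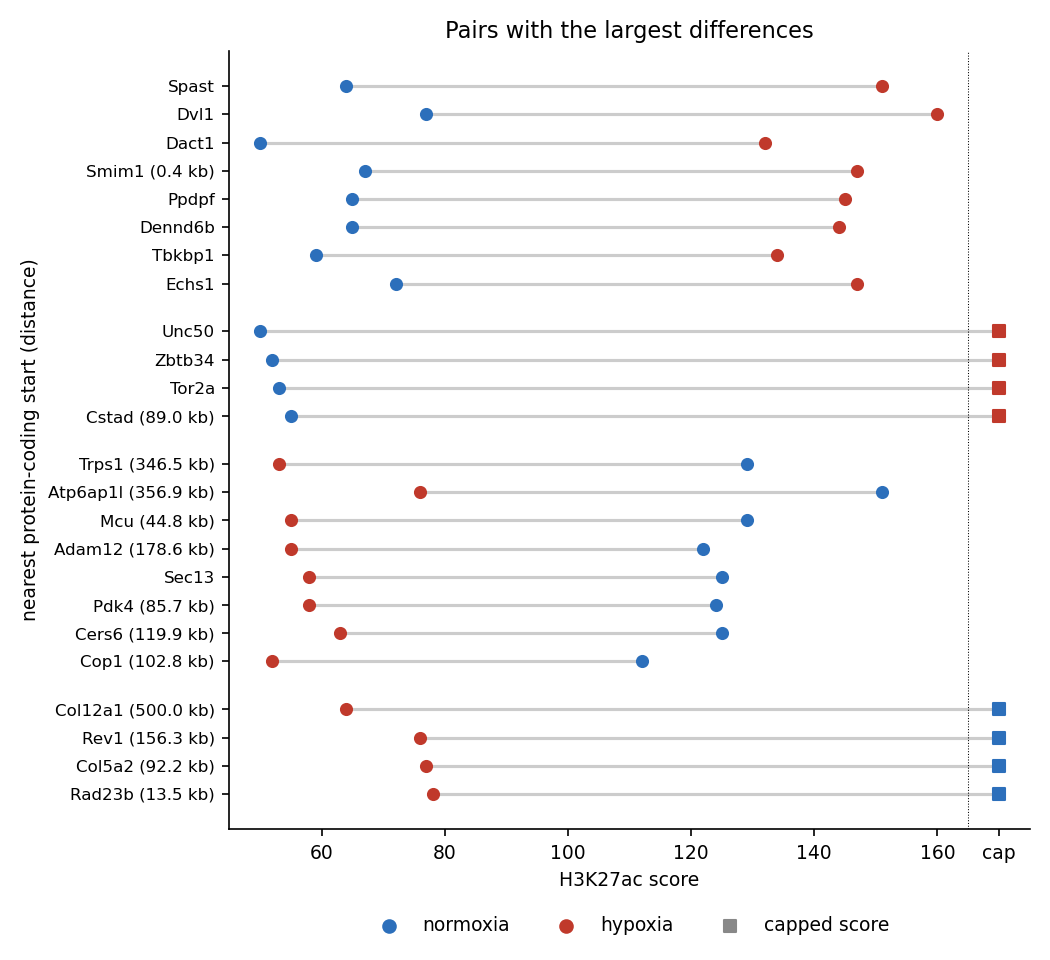
H3K27ac score (x axis, capped scores as squares at the right) in normoxia (blue) and hypoxia (red) for the 8 largest differences in each direction under the cap and 4 pairs capped in a single list in each direction. Rows name the nearest protein-coding start, with the distance in kb where the interval does not reach it. The upper blocks, higher in hypoxia, are mostly at starts, and the lower blocks mostly at a distance.

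Peaks were then read by gene, each assigned to the nearest start within 100000 bp. Of 7100 genes with a measurable pair, 327 had at least 4. Their median difference was above 0 in 189, 0 in 100 and below 0 in 38. In 20 of them every pair was higher in hypoxia and in 6 every pair was lower. Over all measurable pairs 48.4% were higher and 20.1% lower, so some genes with every pair in 1 direction arise from these shares alone. The counts were not compared with them. The 8 genes with the highest and the 8 with the lowest medians follow, and these medians describe few peaks on chromosomes with different caps.

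The 4 peaks nearest to 1700001O22Rik were all capped in hypoxia and scored 58, 108, 109 and 129 in normoxia, which gave the highest median, 51.5. Col5a1, which encodes a chain of fibrillar collagen V, had a median of 43. Its intervals inside the gene, of 28500 and 125500 bp, scored 1000 against 92 and 101 against 80. Rora, which encodes a nuclear receptor, had a median of 46 with both directions in 1 gene. Both of its promoter peaks were capped in hypoxia and scored 114 in normoxia, while an interval of 31000 bp inside the gene was capped in normoxia and scored 122 in hypoxia. Il16, which encodes a cytokine, had 4 of 4 pairs higher with a median of 30.5, and Rps12, which encodes a ribosomal protein, 4 of 4 with a median of 25. At the Rps12 start the scores were 124 and 62. Zbtb7c (median 32), Rreb1 (27.5), which encodes a zinc finger factor, and Maml2 (22), a Notch co-activator, completed the upper end. Maml2 was again mixed, from -77 to 63.

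Tnk2, which encodes a cytoplasmic tyrosine kinase, had the lowest median, -38.5, and was lower in 4 of 4 pairs. Its promoter peak scored 69 in hypoxia and 100 in normoxia, and intervals inside the gene 69 against 115 and 109 against the cap. Col5a2, which encodes another collagen V chain, was also lower in 4 of 4 pairs with a median of -19.5, opposite to Col5a1. GC was below 42% in all 4 of its intervals and above 45% in all 4 at Col5a1. The interval beside the start of Ptx3, a secreted pentraxin, scored 109 against the cap in normoxia, and the gene's median was -18.5. Cblb, a ubiquitin ligase, had -18.0 and Lurap1l -16.0. Grb14, Rere and Hhat closed the list with medians of -7.5, -7.0 and -7.0.

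Where a gene had both an H3K4me3-carrying peak and one far from H3K4me3, the comparison was made inside the gene. Of 1062 such genes, the H3K4me3 peak had the larger median difference in 576, the same in 131 and the smaller in 355, so that 61.9% (interval 58.7 to 64.9) of those that differed leaned to the H3K4me3 peak. The gap was at least 20 points that way in 260 genes and the other way in 89.

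Gene groups were read as lists of known function, by counts beside the background of 17.4% upward and 4.57% downward. The lists were chosen with results of these data known. The order of their medians is not robust, since each of the 9 larger lists had a median between 0 and 2 in score points and between -4.23 and -0.33 in percentile points. The chromosomes of the genes bear on the shares too. Of the matrix and adhesion pairs, 29 of 51 lay on often capped chromosomes, where 23.9% of all pairs were upward, and of the osteogenic pairs 32 of 51 lay on chromosomes almost never capped, where 11.5% were. No order of the lists is therefore read from these shares.

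The osteogenic list, genes that drive or mark bone formation, had 6 of 51 measurable pairs at least 20 higher in hypoxia (11.8%, interval 5.5 to 23.4) and 0 at least 20 lower, which allows up to 5.88%. Its upward pairs lay at Sp7 in both of its changed intervals, with 139 against 111 inside the gene and 123 against 62 at 11033 bp, and at the start of Dlx5, a homeobox factor of bone, with 85 against 60. Atf4, a stress-responsive factor needed in osteoblasts, scored 97 against 61 at 1184 bp from its start. An interval inside Runx2, the master factor of the bone lineage, scored 124 against 102, and one inside the AP-1 gene Fosl2 121 against 100. The lowest medians were at Smad5, a BMP signal transducer (99 against 110), and Spp1, which encodes osteopontin (difference -6), and neither passed 20 points.

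Wnt signalling had 9 of 42 pairs at least 20 higher (21.4%, interval 11.7 to 35.9) and 2 at least 20 lower. The upward pairs lay at the ligand Wnt5a, whose start was capped in hypoxia and scored 96 in normoxia, and at Rspo3, which encodes a secreted amplifier of Wnt signals (93 against 53). They included the receptor genes Fzd7 (118 against 91) and Fzd2 (76 against 55), the transducer Dvl1 and the transcription factor genes Tcf7l1 (127 against 107) and Tcf7l2, where 3 pairs scored 118, 122 and 1000 against 92, 83 and 129. Dkk3, of the Dickkopf family, scored 105 against 135, and the kinase gene Gsk3b 54 against 77.

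The hypoxia response list, HIF targets and regulators, had 7 of 45 pairs at least 20 higher (15.6%, interval 7.7 to 28.8) and 3 at least 20 lower (6.67%). The upward pairs included glycolytic and vascular genes. Pfkfb3, an activator of glycolysis, was capped in hypoxia and scored 105 in normoxia, and Slc2a1, the glucose transporter GLUT1, was capped and scored 129. Eno1, which encodes enolase, scored 134 against 96. The vasodilator gene Adm was capped against 109 at its start and scored 134 against 107 at 14840 bp. Ankrd37 scored 122 against 69, and Vhl, the ubiquitin ligase subunit that removes HIF, 129 against 87. The downward pairs were at the collagen-modifying enzymes Plod2 (70 against 102, and 115 against the cap) and Lox (67 against 110). Hif1a itself had 2 peaks at annotated starts. One scored 143 in both lists, and the other, with the lower H3K4me3 score of 56 against 125, scored 85 against 103, a difference of -18.

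The MAP kinase cascade list had 9 of 51 pairs at least 20 higher (17.6%, interval 9.6 to 30.3), a share close to the background, and 1 lower. Map3k1, a kinase at the top of the cascade, was capped against 81 at its start, and Mapk3, the kinase ERK1, scored 119 against 52. Dusp1, a phosphatase that switches the kinases off, scored 129 in both lists at a start, and 121 against 95 at a further annotated start whose interval also held the start of Ergic1. The downward pair lay 19390 bp from Fos, at 122 against the cap. Spry1 and Mapk14 had the lowest medians, -7.5 and -4.5.

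Matrix and adhesion genes had 12 of 51 pairs upward (23.5%, interval 14.0 to 36.8) and 5 downward (9.80%). Mmp14, a membrane-bound collagenase, was capped against 85 at 3368 bp from its start, Sdc4, a heparan sulphate proteoglycan, was capped against 98, and Mmp2 scored 100 against 66 at its start. The downward pairs lay near Col5a2, near Thbs1, which encodes thrombospondin (100 against the cap at 7876 bp), and 51020 bp from Ccn1 (138 against the cap). Mesenchymal identity genes had 7 of 37 pairs upward (18.9%, interval 9.5 to 34.2) and 5 downward (13.5%), and more pairs were lower in hypoxia, 18, than higher, 14. Prrx2, a homeobox factor of limb mesenchyme, was capped against 86, and Ly6a, which encodes the surface marker Sca-1, scored 128 against 104. Dcn, which encodes the proteoglycan decorin, scored 104 against 129 at its start, and an interval inside Eng, which encodes the MSC marker endoglin, 122 against the cap. Cd44, a hyaluronan receptor, was capped in hypoxia against 132 at its start and scored 105 against the cap 30836 bp away. Vcam1, an adhesion molecule, was likewise divided, with 82 against 53 at its start and 126 against the cap at 3457 bp.

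The list of acetyl-CoA supply and histone acetylation had 6 of 38 pairs upward (15.8%, interval 7.4 to 30.4) and 0 downward, which allows up to 7.89%. Both pairs of Slc25a1, the mitochondrial citrate carrier, were higher in hypoxia, at 118 against 71 on its start and at the cap against 85 at 4719 bp. Acly, the enzyme that turns citrate into acetyl-CoA, scored 91 against 56. The bromodomain gene Brd3 was capped against 101, the acetyltransferase gene Kat6b was capped against 130 and the deacetylase gene Hdac5 scored 120 against 90. Hdac9 and Kat6a had the lowest medians, -3 and -2. Adipogenic genes had 4 of 25 pairs upward (16.0%, interval 6.4 to 34.7) and 0 downward, which allows up to 12.0%. Cebpa, a master factor of fat cells, was capped against 102 and the fatty acid synthase gene Fasn scored 130 against 97, while Zfp423 and Ebf2 had medians of -1. Mitochondrial respiration had 1 of 13 pairs upward, near Cox4i1 (100 against 79), and 0 downward, which allows up to 23.1%. Its other leading gene, Cox7a2, had a difference of 10, and Nrf1 and Ndufa4 had medians of 0. Haematopoietic and endothelial markers had 1 and 2 measurable pairs, at Csf1r (difference 3), Vwf (17) and Cdh5 (1).

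**Figure D5:**
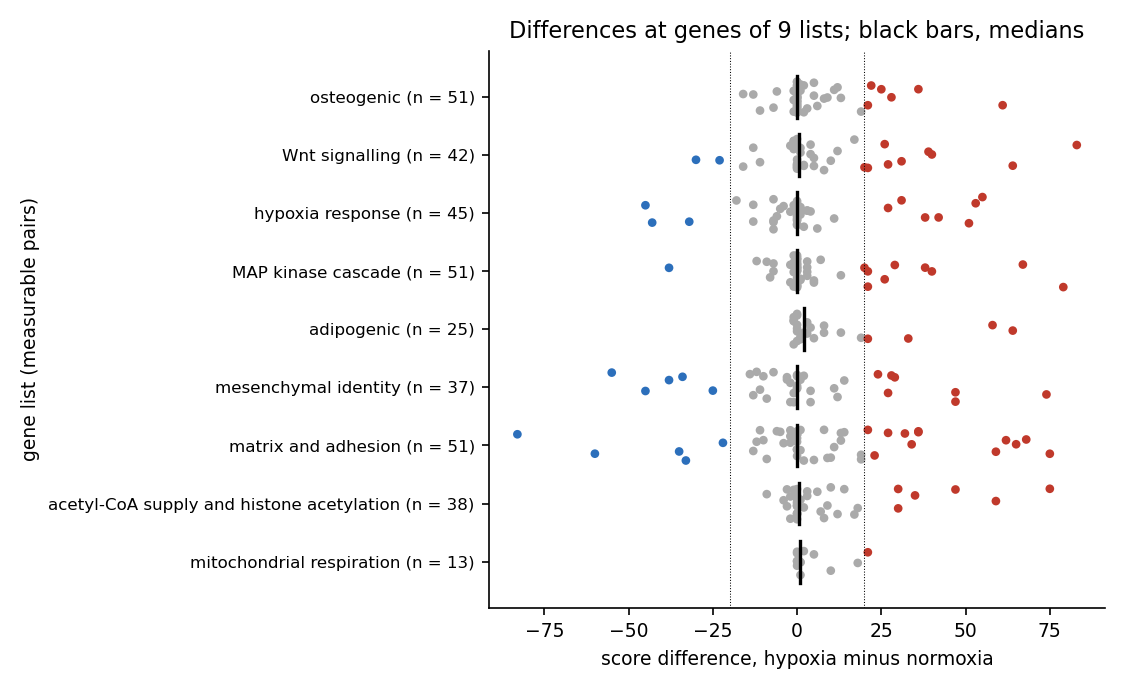
Score difference, hypoxia minus normoxia (x axis, score points), of each measurable pair assigned to a gene of 9 lists (y axis, with the number of pairs). Each point is 1 peak, red at 20 or more and blue at -20 or less, and black bars are medians. The medians lie between 0 and 2, and blue points are absent from the osteogenic, adipogenic, acetyl-CoA and mitochondrial lists.

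A set of 24 single genes was read over the whole gene body and 20000 bp on either side. Shared peaks were found at 21 of them, and Alpl, Bmp2 and Egln3 had none. Of 40 peaks, 6 were capped in both lists, 21 scored higher in hypoxia, 11 the same and 2 lower. Differences of at least 20 were reached by 11 of the 34 measurable pairs upward and by 0 downward, which allows up to 8.82%. The background shares were 17.4% and 4.57%, and this set too was chosen with results of these data known.

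Among bone genes, Sp7 (chr15:102356606-102367182) had 4 shared peaks in this window, of which 3 were at least 20 higher in hypoxia. One of these, 139 against 113, held the start of the neighbouring gene Aaas. The peak 9033 bp from the Sp7 start scored 139 in both lists. At Runx2 (chr17:44495987-44814797), 8 peaks had differences from 0 to 22, and both promoter peaks scored 133 in both lists. Col1a1, the main collagen of bone, scored 135 in both lists at its start, with differences of 0, 0 and 2. Several shared peaks up to 63224 bp from its start also scored 135 in both lists, and what ties at this score mean was not tested. The peak 16619 bp from Dlx3 scored 134 against 125. In Wnt signalling, the Axin2 start scored 89 against 84, and the start of Ctnnb1, the gene of beta-catenin, was capped in both lists.

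Several peaks of the oxygen-response genes in this set were capped in both lists, at Ldha, Bnip3 and Slc2a1, all on often capped chromosomes. In the wider hypoxia response list 14 of 59 shared peaks were capped in both lists, against 2575 of all 14614. The starts of Ldha and Bnip3 were capped in both lists, as was the peak inside Slc2a1, and Vegfa scored 134 against 128 at its start. Of the feedback regulators of MAP kinase signalling, Dusp6 scored 131 in both lists at its start, and Spry2 was capped in both and gave no difference. The MSC markers Pdgfra and Cxcl12 scored 126 against 126 and 131 against 127 at their starts. The acetyltransferase gene Ep300, which encodes p300, scored 138 in both lists. Pparg, a master factor of fat formation, had a single shared peak in its window, 118 against 125, outside the gene and 68435 bp from its nearest start. That peak and the peak inside Pdgfra, 101 against 102, were the 2 pairs of this set with the lower score in hypoxia.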

How the data were processed

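According to the study's methods and the submitters' processing notes, reads were aligned to mm10 by Bowtie2, Picard marked duplicates for removal, and chromstaR, a hidden Markov model run in differential mode on hypoxia and normoxia, gave the peaks. For each mark at each oxygen level there is 1 deposited list, in which the authors gave every peak a score. Every boundary was a multiple of 500 bp, and no interval of the 4 lists overlapped another in part. Read counts, input and values per library were not analysed here.

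The H3K27ac intervals identical in both lists were joined, a capped score (1000) entered as 160, and pairs capped in both lists were left out as not measurable. A difference of at least 20 in score was counted as higher or lower. Starts came from GENCODE M21 (21840 protein-coding genes), with promoters within 1000 bp and genes assigned within 100000 bp. Sequence and GC came from GRCm38.p6. Intervals for differences between shares were Newcombe intervals. Calculations used Python 3.11.15, numpy 2.4.6, pandas 2.3.3 and matplotlib 3.10.9, and the scripts were tested on simulated data.

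No tests were run, since each oxygen level has 1 list. The peaks and gene lists were chosen with earlier results of these data known, and 1 list is not reported here. Genes named are the 8 pairs with the largest difference in each direction under the cap, the 4 pairs in each direction capped in 1 list with the lowest score in the other (ties by width), the 8 highest and 8 lowest medians among genes with at least 4 pairs, the 2 highest and 2 lowest genes per list, and a set of 24 genes. Other genes named beside a list count or in the closing section were chosen after their values were seen.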

Additional observations from a re-analysis of the deposited data

How the results depend on the processing

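No paired analysis was possible because each list merges both libraries of its group, and for the same reason no library could be left out. The median difference of 0 was 1 at a mean score of at least 80, -1.80 as a percentile within the list and -1.14 within list and chromosome, and 0 under the other alternatives. The share of differing pairs higher in hypoxia, 70.6%, was 69.6% without capped scores, 72.4% at a mean score of at least 80, 69.2% for peaks touching no other H3K27ac peak and 73.6% on chromosomes almost never capped, and turned to 36.8% and 39.6% with the percentiles. The 3790 pairs with equal scores, left out at 70.6%, all had the lower percentile within the list in hypoxia and were counted at 36.8%.

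The share at least 20 higher, 17.4%, was 26.7% at a threshold of 10, 6.68% at 40, 12.0% without capped scores, 11.5% on almost never capped chromosomes and 10.2% and 10.1% with the percentiles. The share at least 20 lower, 4.57%, was 8.28%, 1.5%, 3.05%, 2.29%, 4.10% and 4.36% in the same order. Between H3K4me3 on the segment and further away, the upward gap of 10.5 points was 14.4 at widths of 2000 to 5000 bp, 8.39 and 9.19 with the percentiles and 3.95 on almost never capped chromosomes, and the downward gap of -5.33 was -4.09 there and -4.50 with percentiles within chromosomes. Between promoters and peaks between genes, 9.42 was 12.6, 7.20, 7.94 and 3.02, and -4.85 was -2.89 on almost never capped chromosomes. The cause was not tested. With percentiles, the median of each of the larger lists lay below 0, the lowest being the osteogenic one at -4.23. Those that had been above 0 in score points were Wnt signalling (now -0.89), adipogenic (-0.33), acetyl-CoA (-1.59) and mitochondrial genes (-1.33). Alternatives on chromosome groups and within chromosomes, and the percentile thresholds, were chosen after seeing the data.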

Other observations

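Some genes held opposite shifts at different peaks. In 11 genes, chosen after their values were seen, the H3K4me3-carrying peak was at least 20 higher in hypoxia and the peak far from H3K4me3 at least 20 lower. They were Abcc5, Cd44, Col11a1, Pcnx4, Rasa2, Rftn2, Sdc2, Sirpa, Spire1, Tmem219 and Tmem45a, each with 1 peak of each kind. At Rftn2 the differences were 64 and -49, at Sirpa, which encodes an inhibitory receptor, 63 and -45, and at the collagen gene Col11a1 33 and -39. The opposite arrangement, with the H3K4me3 peak at least 20 lower and the distant peak at least 20 higher, was found in 0 of the 1062 genes with both kinds of peak. Over all measurable pairs, 22.6% with H3K4me3 were at least 20 higher and 7.27% of those far from it at least 20 lower. The opposite shares were 1.95% and 12.1%. These shares alone favour the first arrangement, and the counts of genes were not compared with them.

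Among genes with at least 4 measurable pairs, several not named above went one way throughout. Iqsec1, which encodes an exchange factor for ARF GTPases, was higher in hypoxia in 7 of 7 pairs (median 13), Kcne4 in 6 of 6 (median 15.5) and Tns1, which encodes the focal adhesion protein tensin, in 5 of 5 (median 22). Lower in every pair were Fn1, the fibronectin gene (4 of 4, median -5.0), Hsf2bp (4 of 4, median -3.0) and Zbtb20 (6 of 6, median -4.5). These genes too were chosen after their values were seen, and their counts were not compared with the shares over all pairs.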
